A study of Mus musculus with 6 samples.

Results

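Replication timing was read at 10 mouse genes chosen around 1 of the genes deleted in the study: Klhdc3 itself, 3 other Klhdc genes (Klhdc2, Klhdc1 and Klhdc10), and 6 genes of CUL2 ubiquitin ligases (Cul2, Rbx1, Elob, Eloc, Appbp2 and Fem1b). They were chosen by name and are 10 of the 21627 protein-coding genes that the RefSeq annotation of the build places on chromosomes 1 to 19 and X. Each gene took the value of the window nearest its midpoint, and the windows within 500 kb on each side were read with it.

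The series held 3 Recql4-/- Klhdc3-/- samples and 3 WT samples of mouse myeloid cells that HoxB8 keeps dividing and that were selected with GM-CSF. Whole genomes of growing cultures were sequenced; a division took 15 to 18 hours and more than 25% of cells were in S phase, per the labels. Whether the samples of a genotype were separate lines, clones or cultures, and how much of Recql4 or Klhdc3 was removed, is not stated in these sources. The 6 value columns of the files carried no names, so they are given as profiles A to F in column order, no genotype is attached to a value, and no comparison of genotypes was made.

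DNA that is copied early in S phase is present in more copies in a growing culture than DNA that is copied late, and sequencing depth along the genome follows that order. The raw copy level is this depth on a scale where autosomes lie near 2. The timing score is its smoothed form, centred at 0 and scaled to unit SD on the autosomes of each profile, and a higher score means earlier replication. CUL2 ligases are assembled from the scaffold CUL2, the RING protein RBX1, which recruits the ubiquitin-charged enzyme, the adaptor pair elongin B and elongin C, and an exchangeable substrate receptor. KLHDC2, KLHDC3, KLHDC10, APPBP2 and FEM1B are such receptors and read short signals at the C-terminal end of proteins, roles worked out largely with the human proteins. Another CUL2 receptor, LRR1, marks the replicative helicase for removal when replication forks meet.

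Promoters are shown for 3 of the genes because transcription starts rich in CpG are known as frequent places of replication initiation, and because their scores differ: Klhdc3, the deleted gene, Rbx1, the gene with the highest median score among those with 6 values, and Fem1b, the latest of the genes that the table of promoters holds. Each is 300 bases from RefSeq (GRCm38.p6), 250 before and 50 after the transcription start, on the minus, plus and minus strand of chr17:46680881-46681180, chr15:81466066-81466365 and chr9:62811599-62811898, in the order printed. Capitals mark CpG dinucleotides.
Klhdc3: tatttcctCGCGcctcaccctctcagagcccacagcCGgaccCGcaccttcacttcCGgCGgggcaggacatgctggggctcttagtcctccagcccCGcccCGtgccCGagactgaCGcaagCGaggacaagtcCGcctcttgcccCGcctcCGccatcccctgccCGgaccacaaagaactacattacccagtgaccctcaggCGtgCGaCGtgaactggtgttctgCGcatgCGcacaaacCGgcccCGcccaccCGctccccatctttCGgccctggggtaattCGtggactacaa
Rbx1: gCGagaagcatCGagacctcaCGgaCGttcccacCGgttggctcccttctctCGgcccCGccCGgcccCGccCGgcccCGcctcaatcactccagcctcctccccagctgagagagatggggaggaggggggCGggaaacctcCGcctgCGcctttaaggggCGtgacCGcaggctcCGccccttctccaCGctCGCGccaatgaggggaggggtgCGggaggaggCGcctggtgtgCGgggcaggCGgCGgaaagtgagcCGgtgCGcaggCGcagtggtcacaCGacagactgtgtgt
Fem1b: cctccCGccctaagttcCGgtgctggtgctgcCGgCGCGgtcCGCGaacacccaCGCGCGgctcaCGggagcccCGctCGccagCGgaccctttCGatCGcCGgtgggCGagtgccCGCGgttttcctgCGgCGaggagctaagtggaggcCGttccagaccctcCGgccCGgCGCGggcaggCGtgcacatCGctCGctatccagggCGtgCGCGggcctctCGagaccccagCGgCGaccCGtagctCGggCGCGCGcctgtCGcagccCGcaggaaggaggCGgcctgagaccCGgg

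The table of promoters held 8 of the 10 genes, and CpG-rich starts were common to them although their timing differed. These promoters held between 20 (Klhdc2) and 45 (Fem1b) CpG, with 25 in that of Klhdc3 and 29 in that of Rbx1, and a median of 27. Over 17273 promoters of protein-coding genes the median was 14 and the upper quartile 24. The count was above the median of all promoters in each of the 8, and at or above the upper quartile in 5. Fem1b, with the most CpG of the 8, had the lowest score among them.

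In all but 1 case the genes lay in DNA that replicated earlier than the autosomal mean: 9 of the 10 scored above 0 in each profile with a value, against a background of 76.7% of the 19033 autosomal protein-coding genes scored the same way. The 1 exception was Cul2, which scored below 0 in each profile, as 14.7% of the genes did. It lay close to that limit: its highest profile stood at -0.006. Read at the lower coordinate of the gene, its highest profile stood at 0.003, so Cul2 was then not below 0 in each. The median score over the 10 genes was 1.13, against 0.82 over all genes (quartiles 0.26 and 1.20), and 7 of the 10 lay above the median of all genes. Without the 4 genes on chromosomes 12 and 17, where profiles lacked values or stood apart over part of the chromosome, the median was 0.75, below the 0.82 of all genes. These 4 include Elob, with 6 values and a median score of 1.06, which lies outside the part where profile D stood apart. The drop to 0.75 thus also rests on a gene to which that reason does not apply.

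**Figure D1:**
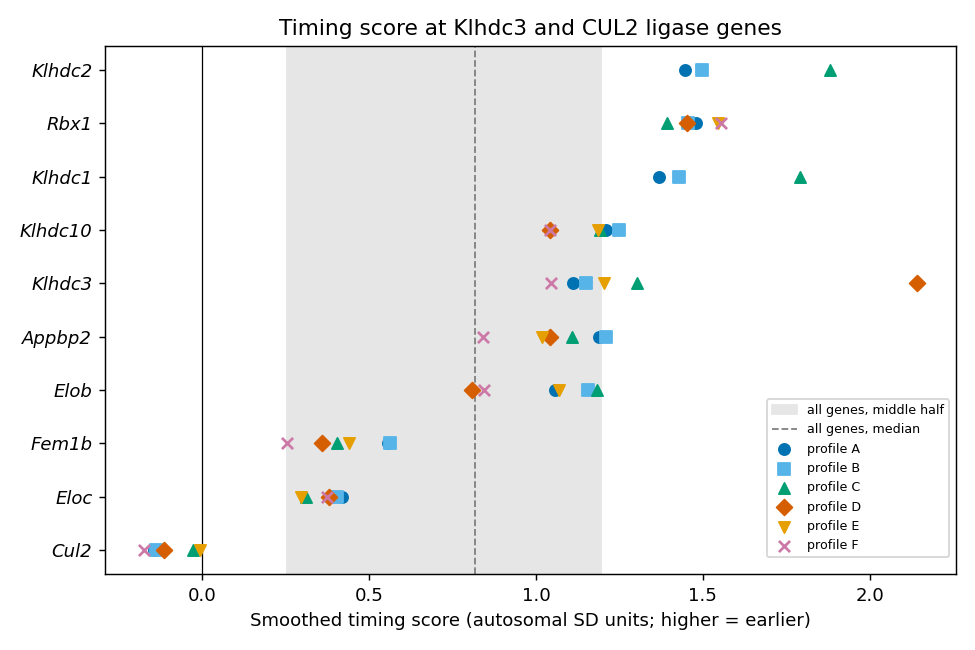
Timing score of each gene (horizontal axis, autosomal SD units) in profiles A to F (symbols), ordered by median from the top, with the quartiles of all autosomal genes as a grey band (0.26 to 1.20) and their median as a dashed line (0.82). Cul2 is the only gene left of 0, and profile D of Klhdc3 stands apart at 2.14.

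Klhdc3 (chromosome 17, 46674550 to 46680930, mm10), the receptor gene that the study deleted, lay in early replicating DNA. Its score was 1.11, 1.15, 1.30, 2.14, 1.20 and 1.05 in profiles A to F, which ranked above 67.0% (A) to 99.4% (D) of the genes. Profile D was far above the others, which lay between 1.05 and 1.30. The spread of 1.10 between the highest and the lowest profile exceeded 0.5 for this gene alone of the 10, a limit that 10.9% of all genes reached, and 5.75% reached 1.

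The raw copy level over the 100 windows within 500 kb of Klhdc3 averaged 2.15, 2.14, 2.14, 2.26, 2.14 and 2.14 in profiles A to F, with an SD over windows between 0.144 and 0.164. Profile D was again the high one, and the others lay between 2.14 and 2.15. The score of D exceeded the median of the other profiles by 0.97 to 1.13 over the 100 windows of this stretch, with a median of 1.01. Measured against the mean score within 5 Mb of the gene, Klhdc3 stood 0.73 higher in D and 0.71 to 0.85 higher in the others, and D lay within their range.

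The higher level of D was shared with a long part of the chromosome. In bins of 500 kb, D had the highest raw level of the 6 profiles in each of the 111 bins from 7 Mb below Klhdc3 onwards, and in 3 of the 66 bins before that. Its difference from the median of the other profiles had a median of 0.12 in the first set of bins and -0.01 in the second. The limit of 7 Mb was taken from these same values, as the last bin down from Klhdc3 with D highest. In the bins between that limit and the gene, D was thus highest by the choice of the limit. Elob, which encodes elongin B, lies on the same chromosome 22.9 Mb below Klhdc3 and outside that part. Within 5 Mb of Klhdc3 the raw level of D averaged 2.15, or 106% of the median of the others, and within 5 Mb of Elob it averaged 2.02, or 99.2% of it. A difference in copy number and a difference in timing both raise the raw level, and cannot be told apart at Klhdc3 from these values.

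**Figure D2:**
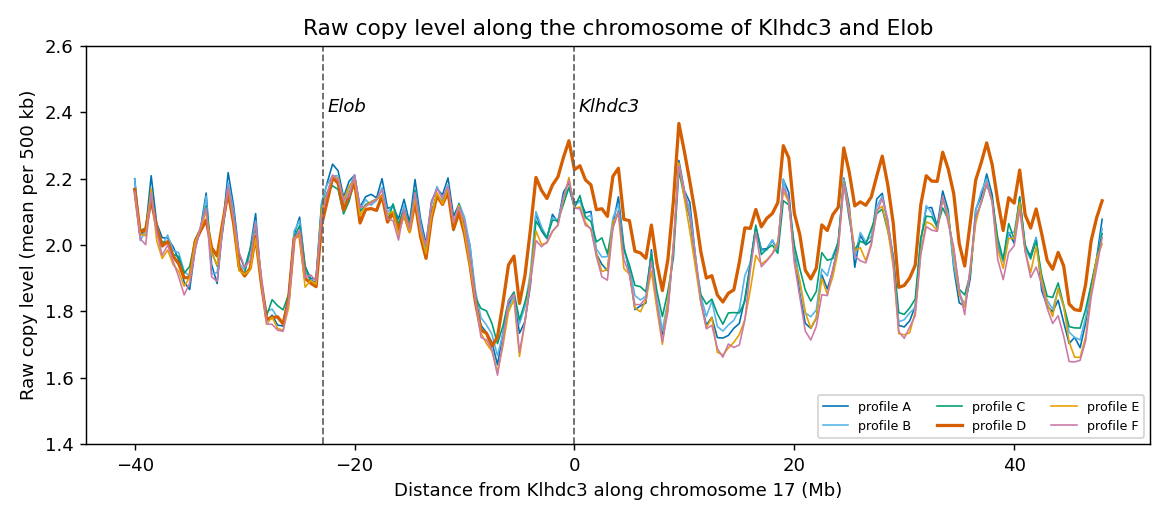
Raw copy level (mean per 500 kb, vertical axis) along chromosome 17 against the distance from Klhdc3 in Mb, 1 line per profile, with dashed lines at Klhdc3 and Elob. Profile D (thick line) runs above the other 5 from 7 Mb below Klhdc3 to the end of the chromosome and with them around Elob.

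At the gene itself, 2 windows overlap Klhdc3. The first (46667508 to 46677633) had raw levels of 2.34, 2.30, 2.26, 2.27, 2.13 and 2.27 in profiles A to F. The second (46677634 to 46687735) had 2.06, 2.10, 2.01, 2.08, 2.09 and 2.08. The lowest of these levels was 2.01, in profile C. The gene is 6381 bp long, and both windows also hold sequence of its neighbours. No profile was the lowest in both windows. Profile D, the highest within 50 kb of the gene, was the highest in neither window. Its mean over the windows on the gene was 2.17, against 2.11 to 2.20 in the other profiles. Windows within 50 kb scattered with an SD of 0.09 to 0.12. Why D was not higher on the gene itself was not tested. Which profiles carry the deletion, and how much of the gene it removed, was not tested.

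The neighbourhood of Klhdc3 was dense in genes and held other members of the cullin family. Counting protein-coding genes that reach within 500 kb, 34 were annotated there, against a median of 18 for all genes. Such counts include the gene itself. Rrp36, a gene of ribosomal RNA processing, ends 0.223 kb below it, Mea1 overlaps it, and Ppp2r5d, a regulatory subunit gene of protein phosphatase 2A, begins 2.06 kb above it. Cul7, a scaffold gene of another cullin ligase, lies 10.2 kb away with a median score of 1.19, and Cul9 lies 128 kb away at 1.28. Both shared the high value of profile D, at 2.16 for Cul7 and 2.24 for Cul9. The score peaked 442 to 483 kb below Klhdc3 in the 6 profiles, and the gene sat on the slope that falls from it.

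Outside chromosome 17, the genes whose 6 scores were closest to those of Klhdc3 were Mad1l1, Chst12 and Grifin on chromosome 5, at Euclidean distances of 0.31, 0.45 and 0.45 score units among 17053 genes compared. Their choice by closeness to Klhdc3 fixes that D is high in them, and Mad1l1 scored 1.94 in D and 1.15 to 1.32 in the other profiles. These 3 genes lie near each other on the chromosome and are not independent.

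Klhdc2 and Klhdc1 lie side by side on chromosome 12, 12.03 kb apart, and replicated early in the profiles that had a value there. KLHDC2 binds proteins that end in diglycine, and KLHDC1 is a close relative. For Klhdc2 (69296681 to 69310687) the score was 1.45, 1.50 and 1.88 in profiles A, B and C, at percentiles 88.3 to 98.8 of all genes. Klhdc1 (69227729 to 69284646) scored 1.37, 1.43 and 1.79 in the same profiles. Profile C was the highest at both genes.

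Raw levels within 50 kb did not set profile C apart. They were 2.27, 2.25 and 2.26 at Klhdc2 and 2.18, 2.20 and 2.18 at Klhdc1 in A, B and C. The median raw level of chromosome 12 was 1.97, 1.98 and 2.02 in these profiles and 2.20 in F. After subtraction of the chromosome's median score in each profile, the range over A, B and C narrowed at both genes. It was 1.38 to 1.48 at Klhdc2, from 1.45 to 1.88, and 1.31 to 1.39 at Klhdc1, from 1.37 to 1.79. Why C scored higher was not tested.

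Profiles D and E carried no value on chromosome 12, and profile F carried none at either gene. In F the nearest valued windows lay 297 kb below and 411 kb above Klhdc1. Their scores were 2.24 and 3.19 in F, against 0.42, 0.57 and 0.82 at the lower one and 1.81, 1.81 and 2.24 at the higher one in A, B and C. Both genes sit on a rising slope: in A, B and C the score within 500 kb of Klhdc1 spanned 2.27, 2.11 and 2.31 units, the widest spans among the 10 genes. The peak of that slope lay 400 to 492 kb above Klhdc1.

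The same stretch holds Lrr1, the CUL2 receptor of replication termination, 48.7 kb from Klhdc1. Lrr1 scored 1.15, 1.23 and 1.55 in A, B and C, a little later than both Klhdc genes in each of these profiles. Pole2, a subunit gene of DNA polymerase epsilon, overlaps the lower end of Klhdc1, and Nemf, a gene of ribosome quality control, begins 0.853 kb above Klhdc2.

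Klhdc10 (chromosome 6, 30401517 to 30455179), whose product marks stalled translation products that end in alanine as well as proteins with other C-terminal ends, was early and varied little. Its score was 1.21, 1.25, 1.19, 1.04, 1.19 and 1.04 in profiles A to F. D and F were lowest, and the spread of 0.21 was below the 0.27 that is the median of all genes. Its raw level within 50 kb was 2.26, 2.22, 2.21, 2.15, 2.24 and 2.24, above both adjacent 100-kb bins in 6 of 6 profiles. The nearest score peak lay 98.8 to 210 kb below the gene, and the lowest score within 500 kb lay 303 kb above it in each profile, at the edge of windows without a value.

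Appbp2 (chromosome 11, 85191308 to 85235120) and Fem1b (chromosome 9, 62791824 to 62811648), the genes of 2 further receptors, differed from each other in every profile. Appbp2 scored 1.19, 1.21, 1.11, 1.04, 1.02 and 0.84 in profiles A to F. Fem1b, whose product reads C-terminal arginine and senses reductive stress, scored 0.56, 0.56, 0.40, 0.36, 0.44 and 0.25. The lowest value of Appbp2 was above the highest of Fem1b, and profile F was the lowest at both. The nearest peak to Appbp2 lay 95.8 to 251 kb above it in coordinates. Fem1b lay on a slope that spanned 1.00 to 1.22 score units within 500 kb, with its highest score at the upper end in each profile. The raw level within 50 kb of Fem1b was 1.99 to 2.08, below both adjacent 100-kb bins in 6 of 6 profiles.

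The core subunits of the ligase included both early and late genes of the list, with median scores between 1.47 (Rbx1) and -0.13 (Cul2). Rbx1 (chromosome 15, 81466316 to 81476369), the RING subunit shared with most other cullins, scored 1.48, 1.45, 1.39, 1.45, 1.54 and 1.55 in profiles A to F, with a spread of 0.16. It lay on an early plateau: the score within 500 kb changed by 0.26 to 0.37 units, the least among the 10 genes in 4 of 6 profiles (Klhdc3 changed less in B and C), and 21 genes were annotated there. Close to the gene, the raw level was not high for the plateau. Within 50 kb it was 2.12, 2.11, 2.04, 2.08, 2.11 and 2.11, against 2.21, 2.19, 2.17, 2.17, 2.19 and 2.22 over the windows within 500 kb. On unsmoothed raw levels rescaled to the same units, Rbx1 stood at 0.86.

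Elob (chromosome 17, 23824740 to 23829109) and Eloc (chromosome 1, 16641725 to 16657428) encode the 2 elongins, which form 1 adaptor, and replicated at different times. Elob scored 1.06, 1.16, 1.18, 0.81, 1.07 and 0.84 in profiles A to F, and Eloc 0.42, 0.40, 0.31, 0.38, 0.30 and 0.37. The ranges of the pair did not overlap. Elob lay in a stretch of 42 protein-coding genes, next to Srrm2, a splicing factor gene that overlaps its end, and Prss33. Eloc lay in a stretch of 7, with Ube2w, a ubiquitin-conjugating enzyme gene, 22.3 kb below it and Tmem70 7.76 kb above it. Near Elob, windows without values separated the gene from a block with vomeronasal receptor genes, which scored as low as -0.71 in profile C.

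Eloc stood out from its surroundings in the raw level. Within 50 kb the level was 2.18, 2.16, 2.20, 2.13, 2.09 and 2.14 in profiles A to F. The adjacent 100-kb bins held 2.04 to 2.09 on the lower side and 1.91 to 2.00 on the upper side. The bin of the gene was above both in 6 of 6 profiles, by a median of 0.15 over their mean, the most of the 10 genes. Windows of the bin scattered with an SD of 0.09 to 0.13 around its mean. The smoothed score peaked 41.9 to 82.7 kb below Eloc, at 0.31 to 0.47. Rescaled to score units, the raw level stood at 1.21, against a smoothed score of 0.38.

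Cul2 (chromosome 18, 3382970 to 3436700), the scaffold that gives the ligase its name, was the latest of the 10 genes. It scored -0.14, -0.14, -0.03, -0.11, -0.01 and -0.18 in profiles A to F, at percentiles 15.9 to 18.6 of all genes, with a spread of 0.17. The raw level within 500 kb was 1.96, 1.97, 1.98, 1.95, 1.96 and 1.96, or 98.9% to 99.9% of the autosomal median. Only 4 protein-coding genes reach that stretch, Cul2 itself included. Among them are Crem, a cyclic AMP-responsive transcription factor gene 45.2 kb below Cul2, and Bambi, a decoy receptor gene of TGF-beta signalling 70.3 kb above it. The nearest peak lay 900 to 991 kb above Cul2. The stretch is cut short on its lower side: 0 windows lie around 500 kb below Cul2, and those with a value start 332 kb below it. The gene count, the raw level and the peak search have less to cover there. On rescaled raw levels within 50 kb Cul2 stood at 0.24, on the other side of 0.

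**Figure D3:**
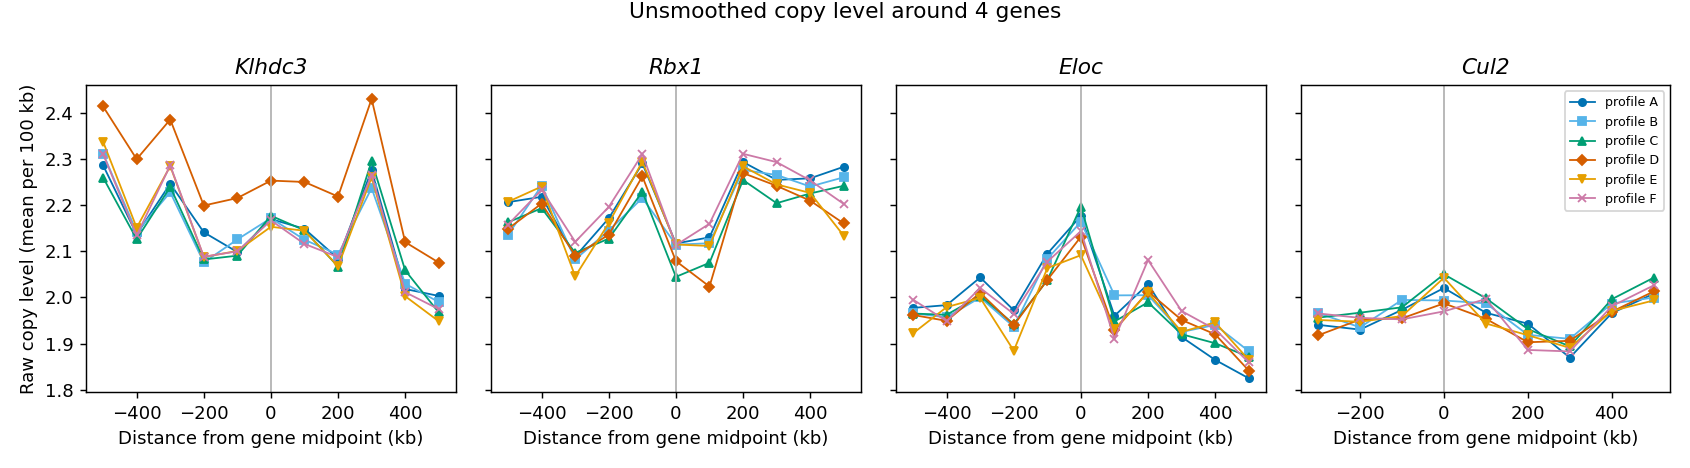
Raw copy level (mean per 100 kb, vertical axis) against the distance from the gene midpoint in kb for Klhdc3, Rbx1, Eloc and Cul2, 1 line per profile. Profile D lies above the others throughout at Klhdc3, the centre of Eloc is a local maximum, and Rbx1 lies in a dip of a high stretch.

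**Figure D4:**
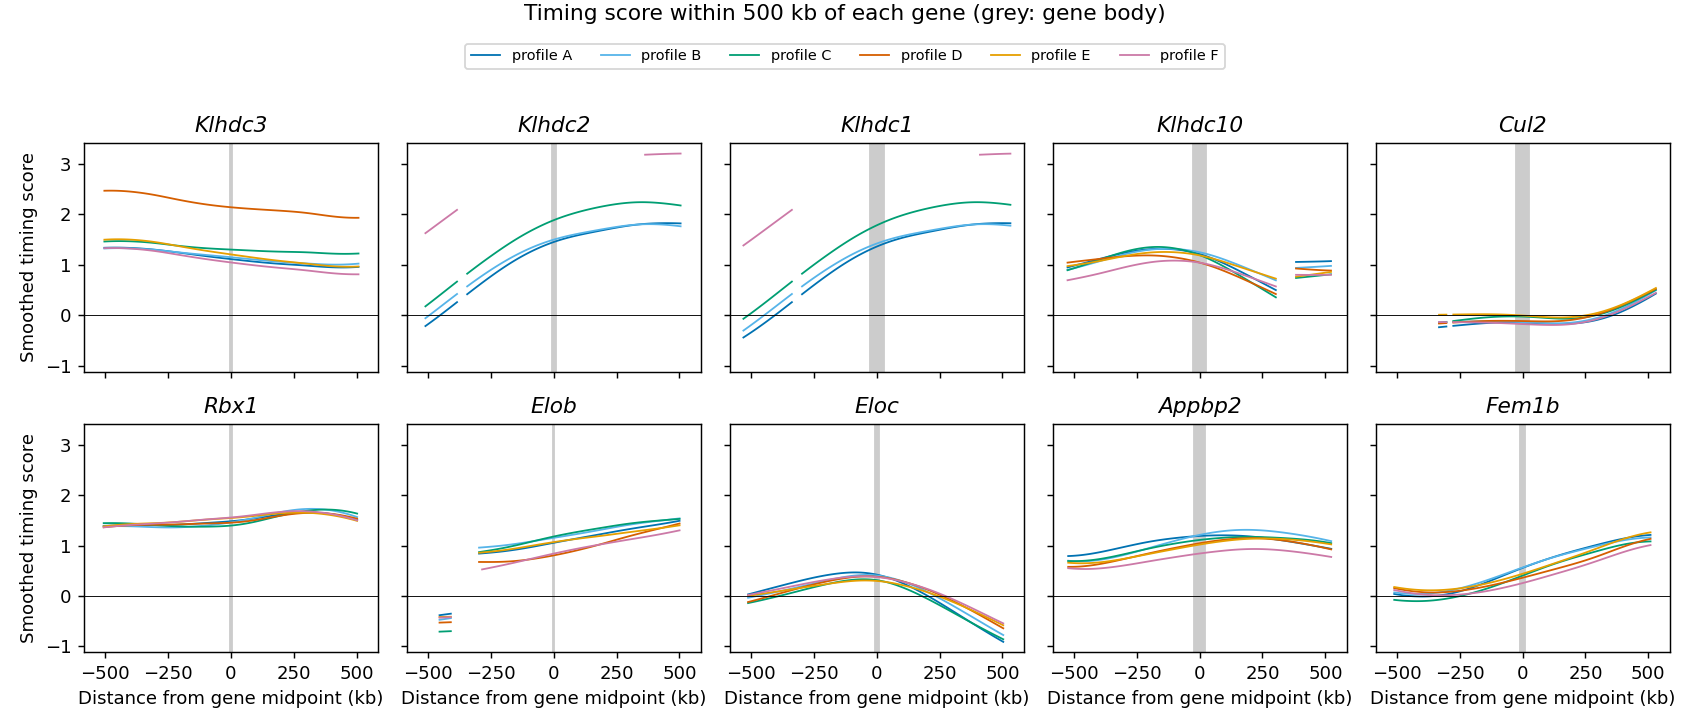
Smoothed timing score (vertical axis) within 500 kb of each gene midpoint (horizontal axis, kb), 1 line per profile, with the gene body in grey; breaks are windows without a value. Rbx1 lies on a plateau, Klhdc1, Klhdc2 and Fem1b on slopes, Eloc near a peak, and the score around Cul2 lies near 0 at the gene and climbs at the upper end, over a span of 0.58 to 0.69.

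In raw copy level the range of the list was narrow. Over the windows within 500 kb, the ratio to the stretch of Cul2 had a median over profiles of 1.12 for Rbx1 (1.09 to 1.13), 1.09 for Klhdc3 (1.08 to 1.16), 1.08 for Elob and for Klhdc10, 1.07 for Appbp2, 1.04 for Fem1b and 1.01 for Eloc (1.00 to 1.02). Klhdc2 stood at 1.10 (1.10 to 1.21) and Klhdc1 at 1.10 (1.09 to 1.19), where the highest value is that of profile F, read from 29 and 33 windows that do not reach the genes.

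By median score the order was Klhdc2, Rbx1, Klhdc1, Klhdc10, Klhdc3, Appbp2, Elob, Fem1b, Eloc and Cul2. The ranges of neighbours in that order overlapped except at 3 steps: Klhdc1 over Klhdc10 (median difference 0.18, in 3 of 3 profiles), Elob over Fem1b (0.59, in 6 of 6) and Eloc over Cul2 (0.52, in 6 of 6). Between Klhdc10 and Klhdc3 the first was higher in 2 of 6 profiles, and between Appbp2 and Elob in 3 of 6.

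Cul2 and Eloc, with the fewest neighbouring genes, were the latest of the 10, while the genes with the most neighbours were not the earliest. The 2 genes with under 10 genes within 500 kb, Cul2 and Eloc, had a median score of 0.13, against 0.27 for all 4318 genes of that class. The stretch of Cul2 is cut short on its lower side. The 5 with 10 to 19 had 1.19, against 0.81 for 6206 genes. Rbx1, the only gene with 20 to 29, stood at 1.47, against 1.02 for 3758 genes. Klhdc3 and Elob, with 30 or more, had a median of 1.12, against 1.07 for 4751 genes. Their 1.12 was below the 1.19 of the 5 listed genes with 10 to 19, and above the 0.81 of all genes in that class. Klhdc2, Klhdc1 and Klhdc10, at ranks 1, 3 and 4 by score, had gene counts of 17, 16 and 16, themselves included, under the median of 18. Spearman's rho between gene count and median score was 0.61 over the 10 genes and 0.37 over all scored genes, as a description, since genes close together share windows and neighbours.

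Profile F was the lowest at 5 of the 8 genes with 6 values, and it was the lowest at 56.2% of the 18059 genes with 6 values. Profile B was the highest at 3 of the 8, and at 16.9% of all such genes; each other profile was the highest at 1. The median score of the 8 genes was 1.08, 1.15, 1.15, 0.93, 1.04 and 0.84 in profiles A to F, against 0.87, 0.85, 0.83, 0.79, 0.82 and 0.70 for all genes. The 8 genes thus had their highest median in B and all genes theirs in A, and both had their lowest in F. The spread between profiles had a median of 0.34 over the 10 genes and 0.27 over all genes.

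Other genes of cullin ligases and their control were read in the same way. Of 35 genes of these kinds, other Klhdc genes included, 32 had a score, and 28 of these (87.5%) were above 0 in each profile with a value, against 76.7% of all genes, with a median score of 1.20. Cul7 and Cul9 share the stretch of Klhdc3, and Lrr1 that of Klhdc1 and Klhdc2. The scores in this share are thus not all independent of each other or of the 10 genes. All 7 scored receptors of CUL2 outside the list were above 0 in each profile, from Fem1a, a relative of Fem1b, at 1.68 to Zyg11b, a reader of N-terminal glycine, at 0.62. Fem1a lies on chromosome 17 as well, and its score of 2.74 in profile D stood against 1.50 to 1.76 in the others. The 6 scored cullins besides Cul2 were all above 0 in each profile, from Cul4a, the scaffold of the ligase that controls the licensing factor Cdt1, at 1.76 to Cul5, which also uses the elongins, at 0.73. Cul2 had a lower median score than each of these 6.

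Of the 14 genes of neddylation and receptor exchange, 11 were above 0 in each profile, a share near the 76.7% of all genes, and Cand1, the exchange factor that strips receptors from cullins, was below 0 in each at a median of -0.86. Its relative Cand2 was the earliest of these genes at 1.82. Nae1, a subunit of the NEDD8-activating enzyme, scored from -0.02 to 0.37, and Dcun1d1, a NEDD8 ligase gene on chromosome 3, scored 0.89, 0.80, 0.80, -0.39, -1.23 and 0.65 in profiles A to F. Chromosome 3 is among those set aside for broad stretches when scores were rescaled, and raw levels at Dcun1d1 are not given here. A difference in copy number and a difference in timing cannot be told apart at this gene. Among the 5 scored Klhdc genes outside the list, Klhdc8b was the earliest at 1.58, and Klhdc7a the latest at -0.27, below 0 in each profile. Recql4, the other gene deleted in the study, scored 1.25 to 1.39 on chromosome 15.

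**Figure D5:**
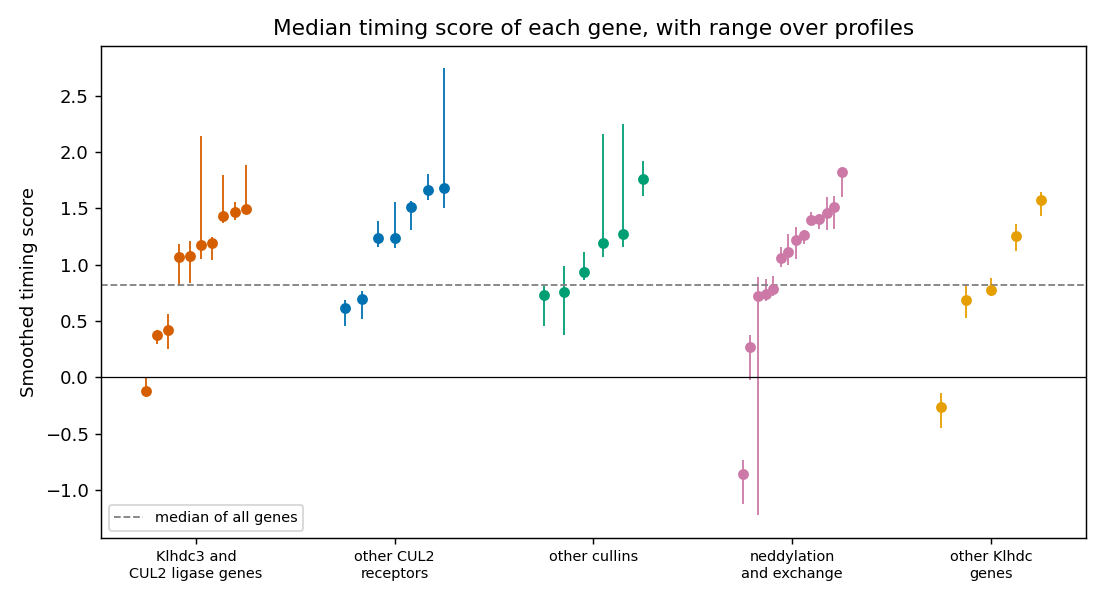
Median timing score of each gene (points, vertical axis) with its lowest and highest profile (bars) for the 10 genes described and the 4 lists of related genes; the dashed line is the median of all genes (0.82). Cul2, Cand1 and Klhdc7a are the points below 0.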

How the data were processed

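Whole-genome sequencing depth was measured in 3 Recql4-/- Klhdc3-/- and 3 WT samples (150-base paired reads aimed at 30-fold, per the labels' protocols). The authors deposited a raw copy level and a smoothed timing score for 237602 windows (median 10041 bp); per the submitters' processing notes, coordinates are mm10 and Picard 2.23.9 was used. The title of the series names TIGER. Aligner, GC correction and smoothing are not given in the sources used here, and the depth is unknown. Each column of deposited scores is centred at 0 with unit SD on the autosomes. Smoothing spreads a local level over its neighbours, and scaling lets large shifts of a chromosome enter every score.

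Genes were placed by RefSeq (GRCm38.p6) at their midpoint and took the nearest window within 50 kb; genes needed values in at least 3 profiles. Peaks were local maxima of prominence 0.25 or more (scipy 1.17.1, on tables read with pandas 2.3.3 under Python 3.11.15), tested on simulated data. The limma fit planned for genotypes needed named columns and was not run, so no test of genotype is reported. Of 35 other genes, Prame and Cul4b lie on X and were left out, since X has a different copy level, and Klhdc9 had no value. The text names the 10 genes, Recql4, adjacent genes, the earliest and latest of each list, and the 3 genes nearest to Klhdc3; Lrr1, Cul7, Cul9, Nae1 and Dcun1d1 were named after their values were seen. The members and lists were chosen with earlier results of these data known. Alternatives covered gene position, windows averaged, smoothing, scaling, flank, prominence and profiles left out.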

Additional observations from a re-analysis of the deposited data

Results flagged for a closer look

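The 6 profiles are not replicates of 1 group, and they were searched for a value far from the others as 6 profiles whose genotypes are not assigned. Of 16 sets of values at the 8 genes with 6 values, 2 had a profile whose gap to the nearest other exceeded the 95% limit of Dixon's test, which chance passes in about 1 of 20 groups. Both were profile D at Klhdc3. Its timing score was 2.14, against 1.05 to 1.30 in the others, and its raw level within 50 kb was 2.25, against 2.15 to 2.18. The score is the smoothed form of the raw level, so the 2 flags are not independent. The high level of D was shared with 111 bins of chromosome 17 and is not particular to Klhdc3.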

How the results depend on the processing

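No paired analysis was possible because no column names its sample, and leaving out replicates of a genotype was not run for the same reason. Placement at the lower coordinate or the transcription start, and averaging over the gene or 50 kb, moved 0 of 38 gene scores by more than the SD over profiles. These alternatives read the same smoothed score close to the midpoint, in some cases in the same window, so little change was possible. Leaving out a single profile cannot move the median of a gene by more than that SD, so it is no check of these scores. Of 78 gene scores under all alternatives other than a profile left out, 14 moved by more than that and 2 changed sign. These were Cul2 on rescaled raw levels (0.24) and Fem1b after subtraction of the mean within 5 Mb (-0.35), where 0 has another meaning. The count of 9 genes above 0 in each profile was 9 with lower coordinates, on rescaled raw levels, and with scores rescaled on chromosomes without broad stretches. A profile left out cannot change this count, since each of the genes lay on the same side of 0 in all its profiles. The median score of 1.13 became 0.70 after subtraction of the mean within 5 Mb and 0.75 without the genes on chromosomes 12 and 17. The median percentile among all genes was 69.7, 62.6 among genes of the same chromosome and 48.5 without the genes on chromosomes 12 and 17. The genes left out include Elob, which had all its values and lies outside the shifted part of chromosome 17. The score range around a gene had a median of 0.90, which became 0.43 with 250 kb and 1.27 with 1 Mb on each side, windows that are narrower and wider by construction. The distance to a peak had a median of 407 kb, and 444 kb at a prominence of 0.5. The starts, the subtraction within 5 Mb and the left-out chromosomes were chosen after the data were seen. The depth behind each window is unknown.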
